A study of Mus musculus with 15 samples.

Results

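A group of 10 genes of the integrated stress response, among them the stress cytokine gene Gdf15, was read out of 55341 gene symbols in RNA sequencing counts of a mouse mammary cancer line: Gdf15, Atf3, Atf4, Ddit3, Trib3, Chac1, Asns, Ppp1r15a, Sesn2 and Cebpg. They were chosen by symbol with earlier results of these libraries known. The value that led to the choice was the level of Gdf15 in untreated knockout against untreated wild-type cells, so every difference between those groups is given below as a description and without a test. All 10 genes were in the table and all 10 passed the filter on low counts. Gdf15 passed through its knockout libraries alone and so had to differ. Its genotype difference is therefore given with no test, and it is left out of the counts of genes called between genotypes.

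The cells were 6DT1, a line of mouse mammary cancer (strain FVB/N1), either wild type or with a knockout of Clic4, the gene of a chloride intracellular channel protein. Both genotypes were left untreated or were treated with 1 µM hydrogen peroxide (H2O2), and RNA was taken after 24 h. The 15 libraries were untreated wild type (libraries 9 to 12), treated wild type (13 to 16), untreated knockout (1 to 4) and treated knockout (5, 7 and 8). Library 9 carries a knockout entry in its genotype field against a wild-type title, and its Clic4 level was that of the other wild-type libraries. The labels name no number of knockout clones and do not say whether cultures were grown independently, so genotype and clone cannot be told apart and p-values measure the spread between these samples.

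The integrated stress response is a pathway by which kinases that sense unfolded proteins, missing amino acids, haem shortage or viral RNA phosphorylate the translation factor eIF2alpha. General translation is slowed, while the mRNA of the transcription factor ATF4 is translated better, so Atf4 mRNA need not change when the pathway is active. ATF4 pairs with partners such as C/EBP-gamma and CHOP and raises genes of amino acid supply, redox balance, feedback and cell death, and Gdf15, a secreted member of the TGF-beta family that is used as a marker of mitochondrial stress.

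ATF4 and its partners bind a composite of a C/EBP and an ATF recognition sequence, and this motif was sought in the RefSeq promoter windows of all 10 genes (GRCm38.p6, 250 bases before to 50 after the start of transcription). The motif searched was TGATGNAA on both strands, together with the cAMP response element TGACGTCA, which reads the same on both strands. The composite was present for 4 of the 10 genes (Atf3, Chac1, Trib3 and Asns), against 3.97% of all 32851 windows. The cAMP response element was present for 1 (Ppp1r15a), against 1.79% of windows. Neither was present within the windows of Gdf15, which has 2 annotated starts, or of Atf4, Ddit3, Sesn2 and Cebpg. The matches are shown with their neighbouring bases, 30 in all, on the strand of the gene, with the match in capitals, because these are the letters that the stress factors are known to read. TTGCATCA and TTACATCA are TGATGCAA and TGATGTAA read on the other strand.
Atf3 (chr1:191183425-191183454, minus strand): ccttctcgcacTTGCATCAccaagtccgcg
Chac1 (chr2:119351038-119351067, plus strand): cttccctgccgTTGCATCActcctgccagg
Trib3 (chr2:152344028-152344057, minus strand): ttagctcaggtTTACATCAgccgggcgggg
Asns (chr6:7693214-7693243, minus strand): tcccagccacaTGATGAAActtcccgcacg
Ppp1r15a (chr7:45526262-45526291, minus strand): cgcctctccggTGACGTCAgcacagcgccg

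Counted from the start of transcription, the first base of the match was at -110 in Atf3, -193 in Chac1, -23 in Asns and -12 in Ppp1r15a, and at 15 after the RefSeq start of Trib3. The Trib3 gene of GENCODE M21 starts further downstream, so that the first base of this match lies 14 bases before it. GENCODE M21 places the Atf3 window inside a longer Atf3 gene model and begins 1 Asns transcript upstream of the RefSeq start, so that the Asns match lies in its first exon. The 100 bases directly before the first start of Gdf15 are given because this gene separates the 2 genotypes, and they hold neither motif.
Gdf15 (chr8:70632457-70632556, minus strand): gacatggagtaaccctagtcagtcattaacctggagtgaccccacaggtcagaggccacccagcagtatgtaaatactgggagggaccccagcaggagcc

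Libraries held 12.31 to 16.03 M counts, and 13085 genes were tested in 1 edgeR quasi-likelihood model of the 4 groups, with Benjamini-Hochberg adjusted p-values (adjusted p) over all of them and calls at 0.05. Expression is given as normalised CPM, counts per M scaled by the TMM method, and log2 differences carry an approximate standard error (SE). Clic4 had 315 ± 1.58 CPM in treated wild-type and 71.8 ± 3.81 CPM in treated knockout libraries (mean ± SD, n = 4 and 3), a reduction and not a loss of its RNA. Its protein is not read by these counts. Summed leukocyte markers were lower in knockout (289 to 324 CPM) than in wild-type libraries (399 to 445 CPM), with the pan-leukocyte gene Ptprc at 0 in the knockout. Erythroid markers reached at most 1.01 CPM, in library 9, and summed fibroblast markers were 11.3 to 14.0 CPM in the knockout against 16.9 to 22.4 CPM in wild type. Summed epithelial markers spanned 922 to 1060 CPM over all libraries, but the epithelial adhesion gene Epcam had at most 1 count in any library. The part of these markers in the results below was not tested.

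**Figure D1:**
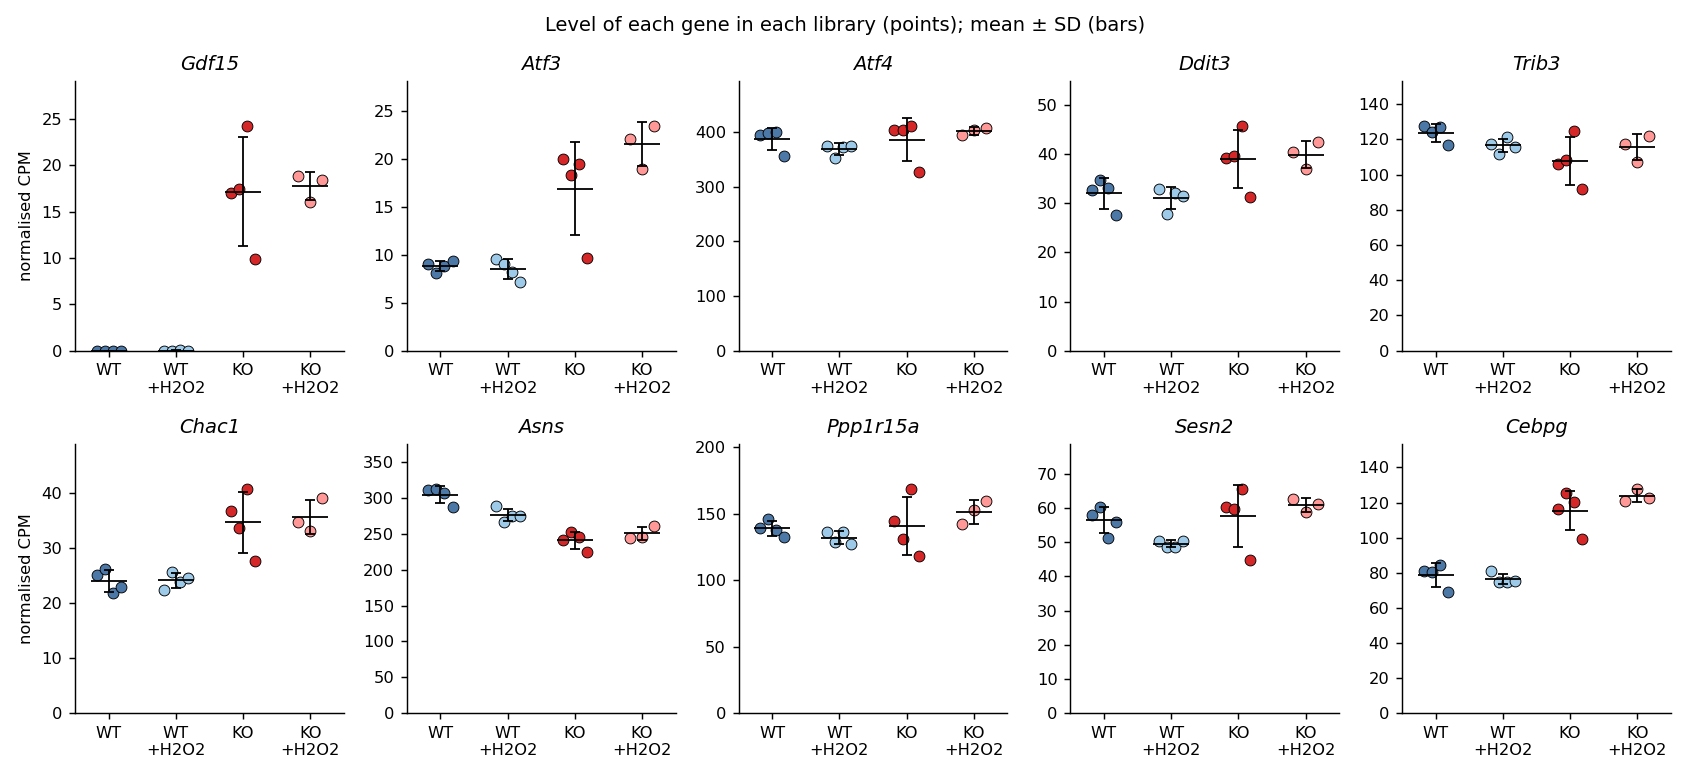
Normalised CPM of the 10 genes in every library (points) by group, with mean ± SD; WT is wild type and KO is Clic4 knockout. Gdf15 lies at or near 0 in all 8 wild-type libraries, and the lowest untreated knockout point is library 4 in every panel.

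Gdf15 was present in knockout cells and almost absent from wild-type cells. The gene lies on chromosome 8 (70629393 to 70632456, minus strand, mm10). Its level was 17.0, 17.5, 24.2 and 9.88 CPM in untreated knockout libraries 1 to 4 and 18.8, 16.1 and 18.4 CPM in treated knockout libraries 5, 7 and 8. All 4 untreated wild-type libraries had 0 counts, and the treated ones held 1 count in all, in library 15 (0.0742 CPM). No wild-type library came near any knockout library, and library 4 was the lowest of the knockout. Without treatment the 1008 counts of the knockout stood against 0, at least 339.1-fold more with wild type at a floor of 3 counts over the group. With H2O2 the 730 counts stood against 1, a ratio of 1052 with a 95% exact interval of 188.2 to 41600 that covers counting error only. In bulk RNA, more cells that express Gdf15 and more Gdf15 RNA per cell cannot be told apart.

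The genotype comparison under H2O2 was tested for the other 9 genes. Treated libraries are other libraries of the same cells, and their results were also known when the genes were chosen, so a test there is not independent evidence. Of these 9 genes, 5 were higher in the knockout (Atf3, Cebpg, Chac1, Ddit3 and Sesn2), 1 was lower (Asns), and Atf4, Trib3 and Ppp1r15a did not pass. Over all tested genes 33.0% were called higher and 32.4% lower, so a call by itself is common in this comparison. Libraries of the 2 genotypes did not overlap for 8 of the 9 genes, 7 higher and Asns lower, where 33.4% of all tested genes were higher without overlap and 33.0% lower. The median log2 difference was 0.30 over the 9 genes and 0 over all tested genes.

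**Figure D2:**
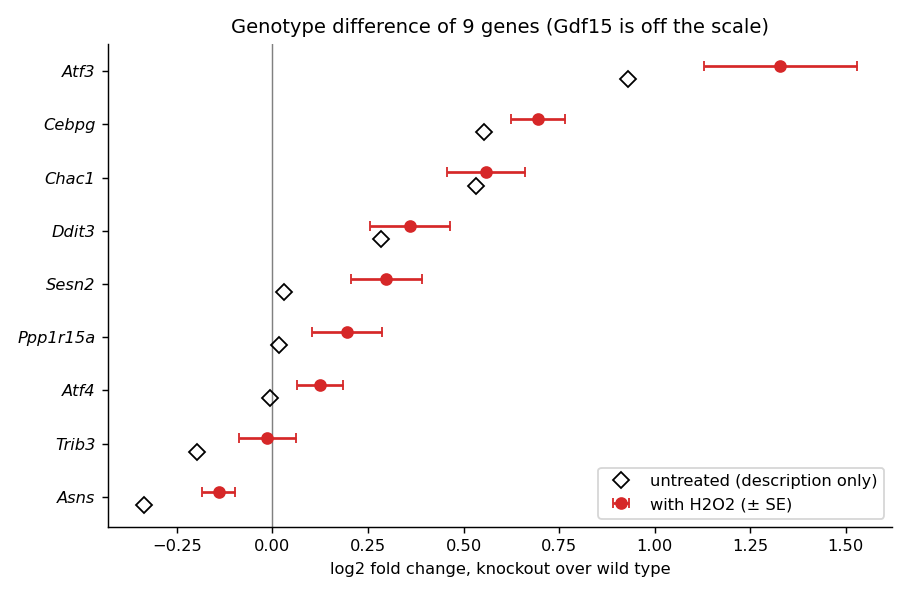
Log2 fold change of knockout over wild type for 9 of the genes, with H2O2 (filled, ± SE) and untreated (open, description only). Atf3 is highest at 1.33 with H2O2 and Asns lowest at -0.14. Every treated value lies above its untreated value, but for Ddit3 and Chac1 this order changed with 1 library left out. The difference between treated and untreated values passed the test for none of these genes.

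Among the transcription factors, Atf4 itself differed little. This gene on chromosome 15 (80255184 to 80257541, plus strand) encodes the central factor of the pathway. Its level was 395, 398, 400.1 and 356 CPM in untreated and 373, 353, 373 and 375 CPM in treated wild-type libraries. In knockout libraries it was 403, 403, 411 and 326 CPM untreated and 394, 404 and 407 CPM with H2O2. Treated knockout libraries all lay above treated wild-type ones, while untreated groups overlapped. The log2 difference under H2O2 was 0.12 (SE 0.0611, edgeR adjusted p 0.0819). It passed when only the treated libraries were fitted (adjusted p 0.00140) or without untreated knockout library 4 (adjusted p 0.00511), at nearly the same size (0.12 in both). Atf4 is regulated mainly in translation, which mRNA counts do not read.

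Atf3, a repressor and early stress factor of the same bZIP family, showed the largest difference after Gdf15. It lies on chromosome 1 (191170296 to 191218039, minus strand). Wild-type libraries held 8.98, 8.08, 8.835 and 9.38 CPM untreated and 9.50, 9.03, 8.24 and 7.18 CPM treated. Knockout libraries held 19.99, 18.3, 19.5 and 9.68 CPM untreated and 22.1, 18.95 and 23.4 CPM treated. All knockout libraries exceeded all wild-type ones, though library 4 did so narrowly, at 9.68 against 9.50 CPM in the highest wild-type library. Under H2O2 Atf3 was 2.53-fold higher in the mean of the knockout (log2 1.33, SE 0.2, edgeR adjusted p 5.05e-05).

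Cebpg, on chromosome 7 (35046422 to 35056573, minus strand), encodes the ATF4 partner C/EBP-gamma. Its level was 80.8, 80.7, 84.7 and 68.95 CPM in untreated and 80.9, 75.02, 74.9 and 75.1 CPM in treated wild-type libraries. It was 116.5, 125, 121 and 99.35 CPM in untreated and 121, 128 and 123 CPM in treated knockout libraries. Genotypes were fully separated, with the lowest knockout value at 99.35 and the highest wild-type value at 84.7 CPM. The log2 difference under H2O2 was 0.69 (SE 0.07, edgeR adjusted p 5.87e-08), the smallest p among the 9 genes.

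Ddit3 encodes CHOP, a factor linked to cell death in prolonged stress, on chromosome 10 (127290774 to 127296288, plus strand). Wild-type libraries held 32.7, 34.8, 33.04 and 27.6 CPM untreated and 32.9, 27.9, 32.1 and 31.4 CPM treated. Knockout libraries held 39.1, 39.5, 45.7 and 31.3 CPM untreated and 40.35, 36.9 and 42.5 CPM treated. Treated groups were separate, whereas library 4 at 31.3 CPM fell among the untreated wild-type values. Under H2O2 Ddit3 was 1.28-fold higher in the mean of the knockout (log2 0.36, SE 0.106, edgeR adjusted p 0.00659).

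Among the targets of ATF4, Chac1, a glutathione-degrading enzyme on chromosome 2 (119351229 to 119354381, plus strand), was higher in the knockout. Its level was 25.04, 26.2, 21.8 and 22.96 CPM in untreated and 22.4, 25.65, 23.9 and 24.6 CPM in treated wild-type libraries. Knockout libraries held 36.8, 33.7, 40.8 and 27.6 CPM untreated and 34.8, 33.1 and 39.03 CPM treated, all above every wild-type library. The ratio of means under H2O2 was 1.48 (log2 0.56, SE 0.102, edgeR adjusted p 8.08e-05).

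Asns, asparagine synthetase, on chromosome 6 (7675169 to 7693254, minus strand), went the other way. Wild-type libraries held 310.0, 312, 307 and 287 CPM untreated and 288, 267, 274 and 274 CPM treated. Knockout libraries held 241, 252.5, 245 and 225 CPM untreated and 244, 246 and 261 CPM treated. Every knockout library lay below every wild-type library. The untreated ratio of means was 0.792 and the treated one 0.908 (log2 -0.14, SE 0.0431, edgeR adjusted p 0.00555). Of the 4 genes with the composite motif printed above, Atf3 and Chac1 were higher, Asns was lower and Trib3 did not pass. A part of the motif in these differences was not tested.

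Trib3, a pseudokinase that inhibits ATF4 and CHOP in a feedback loop, lies on chromosome 2 (152337422 to 152344032, minus strand). It stood at 128, 124, 127 and 117 CPM in untreated and 117.5, 112, 121 and 116 CPM in treated wild-type libraries. The knockout had 106, 108, 125 and 91.7 CPM untreated and 117, 107 and 122 CPM treated. Treated groups overlapped, and the log2 difference was -0.01 (SE 0.0745, edgeR adjusted p 0.888). Its SE leaves room for differences of the size seen for Asns.

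Sesn2, sestrin 2, restrains the growth kinase complex mTORC1 when leucine is short, and lies on chromosome 4 (132492032 to 132510501, minus strand). Wild-type libraries held 58.05, 60.2, 51.3 and 55.9 CPM untreated and 50.5, 48.7, 48.6 and 50.4 CPM treated. Knockout libraries held 60.2, 59.8, 65.6 and 44.7 CPM untreated and 62.7, 58.8 and 61.1 CPM treated. Treated groups were apart and untreated groups overlapped. The treated wild-type libraries also lay below all untreated wild-type ones, but this difference did not pass (edgeR adjusted p 0.764). None of the other stress genes was separated between these wild-type groups, and the share of all tested genes separated in this way was not counted. The log2 difference under H2O2 was 0.30 (SE 0.0927, edgeR adjusted p 0.0099), against 0.03 without treatment.

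Ppp1r15a encodes GADD34, which brings a phosphatase to eIF2alpha and ends the response. It lies on chromosome 7 (45522916 to 45526268, minus strand). Wild-type libraries held 139, 146, 138 and 132 CPM untreated and 136, 129, 136 and 127 CPM treated. Knockout libraries held 144, 131, 169 and 118 CPM untreated and 142, 152 and 159 CPM treated. The untreated knockout libraries were the most spread of the 4 groups and spanned the whole wild-type range. Under H2O2 the log2 difference was 0.20 (SE 0.0922, edgeR adjusted p 0.0787). With DESeq2 it passed (adjusted p 0.0278), as it did with only the treated libraries (0.000105) and without untreated knockout library 3 (0.00337) or 4 (0.015).

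Per length of transcript, the order of the genes was the same in both genotypes under H2O2. On the deposited RPKM scale (reads per kilobase per M, mean ± SD) Atf4 was highest, at 134.5 ± 3.41 in treated wild-type and 144 ± 2.38 in treated knockout libraries. Asns followed at 75.5 ± 2.42 and 67.3 ± 2.65, and Trib3 at 38.2 ± 1.15 and 37.2 ± 2.47. Ddit3 had 29.1 ± 2.00 and 36.7 ± 2.66, and Ppp1r15a 27.97 ± 0.966 and 31.5 ± 1.81. Their libraries overlapped in wild type, and in the knockout those of Trib3 and Ddit3 did. The lower levels were those of Cebpg (15.02 ± 0.597 and 23.9 ± 0.661), Chac1 (10.6 ± 0.613 and 15.4 ± 1.34), Sesn2 (10.2 ± 0.207 and 12.34 ± 0.414) and Atf3 (3.51 ± 0.427 and 8.72 ± 0.943). Gdf15 was last, at 7.20 ± 0.615 RPKM in treated knockout libraries (6.497 to 7.635), below the range of Atf3 there (7.679 to 9.514). Chac1 and Sesn2 overlapped in wild type and were apart in the knockout.

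The genes did not respond detectably to 1 µM H2O2 in either genotype. In wild-type cells 0 of the 9 measurable genes passed (Gdf15, with 0 and 1 counts, has no fold), where 0.0153% of all tested genes were called. In knockout cells 0 of 10 passed, where 0.0535% of all genes were called. The widest differences in wild type were those of Sesn2, with a log2 of -0.19 (SE 0.0861, unadjusted p 0.0462, edgeR adjusted p 0.764), and Asns, at -0.14 (SE 0.0395, unadjusted p 0.00134, edgeR adjusted p 0.485). In the knockout it was Atf3, at 0.35 (SE 0.185, unadjusted p 0.0825, edgeR adjusted p 0.692), and Gdf15 stood at 0.05 (SE 0.246, adjusted p 0.984). Without library 4 the value of Atf3 was 0.15 and that of Gdf15 -0.15. In wild type 8 of 9 fitted values were below 0, and in the knockout 10 of 10 were above 0, but 5 of 10 without library 4, where Gdf15, Atf4, Ddit3, Chac1 and Sesn2 lay below 0. Within a genotype all genes share the same libraries, so these signs are not separate observations.

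**Figure D3:**
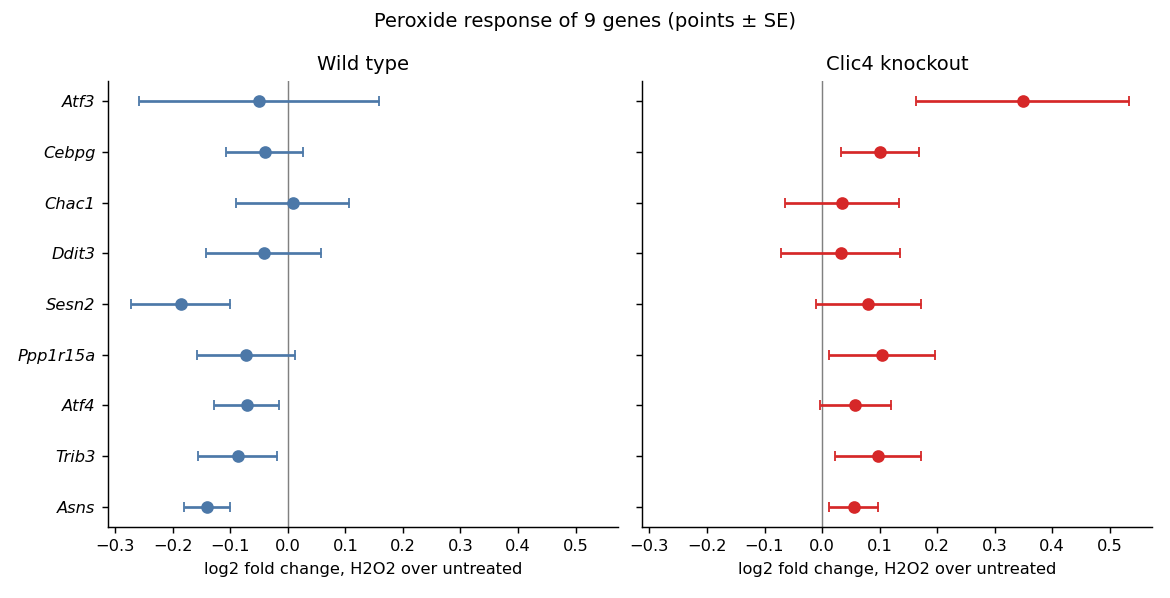
Log2 fold change of H2O2 over untreated for 9 genes in wild-type (left) and knockout cells (right), points ± SE. Values lie between -0.19 and 0.01 in wild type and between 0.03 and 0.35 in the knockout, and none passed the test.

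The difference between the 2 peroxide responses was tested as an interaction. It passed for 0 of 13085 genes (0%), with 808 genes at an unadjusted p under 0.05, and with 15 called by DESeq2. The smallest unadjusted p among the stress genes was that of Asns (log2 0.20, SE 0.0585, unadjusted p 0.00234, edgeR adjusted p 0.657), followed by Sesn2 (log2 0.27, SE 0.126, unadjusted p 0.0502, adjusted p 0.806). For Atf3 the interaction was 0.40 (SE 0.279, adjusted p 0.898), the widest error of the 9 genes.

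The spread among untreated knockout libraries was common to the genes, a pattern looked at after the values were seen. Library 4 held the lowest of the 4 values for all 10 genes, while it held the lowest value for 26.1% of all tested genes. The count was 10 of 10 as well with total-count CPM, with median-ratio size factors and in the deposited RPKM table (24.4%, 26.3% and 24.4% of all genes). Its deviations from the group mean on a log2(CPM + 0.5) scale ran from -0.10 for Asns to -0.72 for Atf3, with -0.70 for Gdf15 and a median of -0.27, where the median over all tested genes was 0. Library 3 held the highest value for 7 of the 10 genes (26.6% of all genes), with Gdf15 at 0.55 and Ppp1r15a at 0.28. Among treated knockout libraries, number 8 was highest for 7 of 10 genes (34.1% of all genes) and number 7 lowest for 6 (33.5%), with deviations within -0.17 to 0.13. In wild-type libraries the deviations stayed between -0.22 and 0.16. Untreated library 12 was lowest for 6 of 9 genes (25.3% of all genes) and untreated library 10 highest for 5 (21.8%). Treated library 13 was highest for 5 of 9 (26.7%). The mitochondrial share of counts in library 4 (2.01%) lay within that of its group (1.75 to 2.33%), and its depth was 15.12 M counts.

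**Figure D4:**
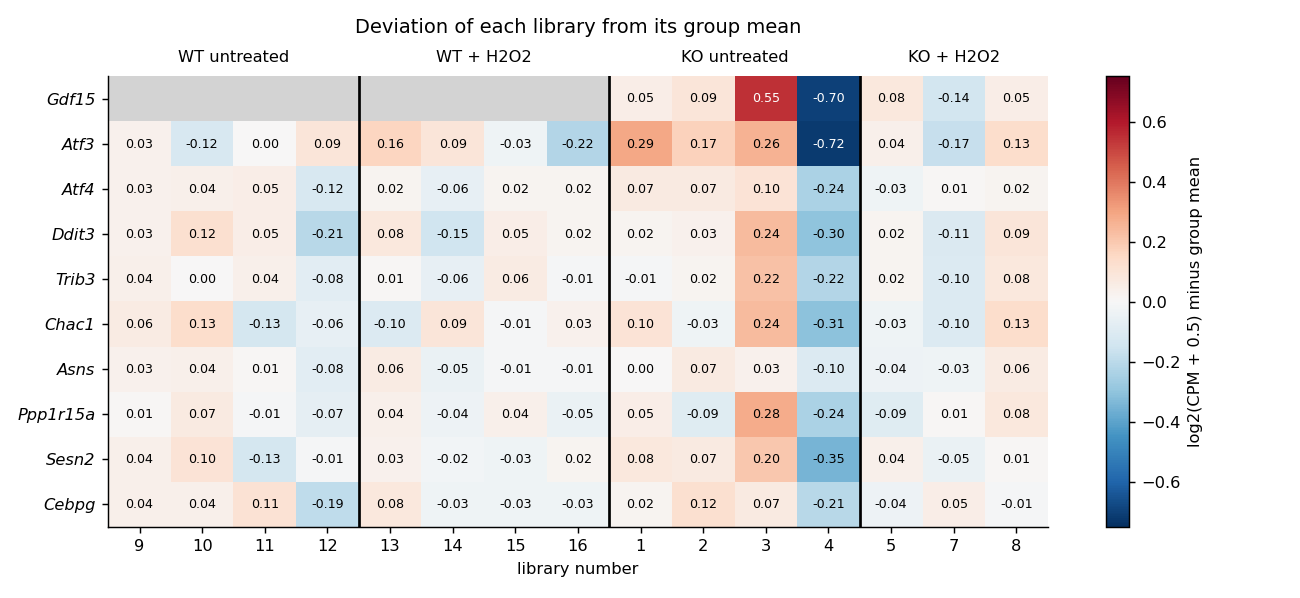
Deviation of each library from its group mean, in log2(CPM + 0.5), for 10 genes (rows) and 15 libraries (columns); grey marks Gdf15 in wild type. The column of library 4 is below 0 in all 10 rows, from -0.10 to -0.72, and that of library 3 is above 0 in all 10.

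Other genes of the pathway followed library 4 in part. The lowest untreated knockout value was in library 4 for 11 of 13 serine, glycine, proline and transsulfuration genes, for 9 of 11 amino acid transporters and for 14 of 19 aminoacyl-tRNA synthetases. Their median deviations there were -0.13, -0.08 and -0.06. For the kinases and subunits of eIF2 and eIF2B it was 3 of 12 (median 0.01). For the other branches of the unfolded protein response it was 6 of 15 (median 0.06). In the remaining lists it was 10 of 15 stress effectors (median -0.14), 7 of 9 bZIP partners (-0.13) and 6 of 10 genes listed with the GDF15 receptor (-0.12). It was 5 of 11 mitochondrial stress genes (-0.04) and 1 of 4 eIF2alpha phosphatase genes (0.02). Over all tested genes library 4 held the lowest value for 26.1%.

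The profile of Gdf15 over the 7 knockout libraries was compared with that of the 11793 other tested genes that averaged 1 CPM or more in them, by the root mean square difference of mean-centred log2(CPM + 0.5). A flat profile would differ from Gdf15 by 0.35. The 5 nearest genes were Gm42893 (0.103), Gm38077 (0.112), 4933431E20Rik, Ip6k3 and Gm26917 (0.136 each), and 4 of them had low levels, at 1.15 to 2.12 CPM in treated knockout cells. Among the stress genes the nearest were Sesn2 (0.193, rank 56), Ddit3 (0.199, rank 63), Atf3 (0.203, rank 76) and Chac1 (0.205, rank 82), and the farthest Asns (0.311, rank 1629). Without library 4, a comparison added after seeing the data, Ddit3 was at a like rank (0.101, rank 80), while Atf3 went to rank 6840 and Sesn2 to rank 600, and a flat profile differed by 0.185. The likeness of Atf3 and Gdf15 in the knockout therefore rested on library 4. Other ranks depended on that library too. Without it Cebpg went from rank 536 to 5886 and Atf4 from rank 339 to 3117. Of the 5 nearest genes, Gm42893 went to rank 142, 4933431E20Rik to 1005 and Ip6k3 to 261, while Gm38077 was at rank 30 and Gm26917 at rank 24.

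Beyond the 10 genes, 10 lists of the pathway and its neighbours held 128 genes, of which 127 were in the table and 119 were tested. Of these, Batf3, Fos and Egr1 passed the low-count filter through knockout libraries alone and Slc7a3 through wild-type libraries alone. These 4 genes had to differ and are left out of the counts and medians that follow. Under H2O2, 56 of the other 115 (48.7%) were higher and 37 (32.2%) lower in the knockout, where 33.0% of all tested genes were higher and 32.4% lower. The counts of each list are read beside those shares.

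The upstream steps differed modestly. Of 12 eIF2alpha kinases and subunits of eIF2 and its exchange factor eIF2B, 5 were higher and 2 lower (median log2 0.08). The double-stranded RNA sensor PKR, encoded by Eif2ak2, fell from 77.5 ± 1.8 CPM in wild type to 42.1 ± 2.83 CPM in the knockout (log2 -0.88, SE 0.0568, edgeR adjusted p 9.8e-14). Eif2ak4, the amino acid sensor GCN2, was lower by less (log2 -0.28, adjusted p 0.00217). The exchange factor subunit Eif2b3 was higher (log2 0.67), as was the eIF2 subunit Eif2s3x (log2 0.41). Of 4 further genes of the eIF2alpha phosphatase, 3 were higher and 0 lower (median log2 0.18), with the catalytic subunits Ppp1cc at 0.29 and Ppp1cb at 0.23.

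Of 7 bZIP factors that pair or compete with ATF4, 6 were higher and 1 lower (median log2 0.30). Cebpb rose from 19.8 ± 2.39 to 26.2 ± 3.23 CPM (log2 0.40, SE 0.112, edgeR adjusted p 0.00377) and Jun, a component of AP-1, was also higher (log2 0.39, adjusted p 0.00196). Atf5, a relative of ATF4 tied to the mitochondrial stress response, was the lower one, from 171 ± 11.0 to 132 ± 2.93 CPM (log2 -0.37, adjusted p 1.42e-06).

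Of 13 enzymes of serine, glycine, proline and sulphur amino acid synthesis and of one-carbon metabolism, 7 were higher and 5 lower (median log2 0.12). The folate enzymes Shmt1 (from 18.7 ± 0.407 to 46.4 ± 0.882 CPM, log2 1.31) and Mthfd2 (from 194 ± 7.97 to 297 ± 7.67 CPM, log2 0.62) were higher, and the proline enzyme Pycr1 (log2 -1.07) and the mitochondrial folate enzyme Aldh1l2 (log2 -0.57) lower. Of 10 amino acid transporters 4 were higher and 6 lower (median log2 -0.23). The cationic transporter Slc7a1 rose from 263 ± 7.83 to 530.0 ± 15.3 CPM (log2 1.01, SE 0.0438, edgeR adjusted p 1.55e-17) and the glutamine transporter Slc1a5 was higher too (log2 0.58). The cystine transporter Slc7a11 fell from 49.6 ± 6.35 to 29.2 ± 2.57 CPM (log2 -0.77), and Slc38a7 was lower (log2 -0.58). Of 19 cytosolic aminoacyl-tRNA synthetases 9 were higher and 5 lower (median log2 0.08), with Kars at 0.56 and Vars at 0.46 against Wars at -0.52 and Rars at -0.45.

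Of 15 stress effectors, 8 (53.3%) were higher and 4 (26.7%) lower (median log2 0.31), against 33.0% and 32.4% of all tested genes. Ddit4, an inhibitor of mTORC1, rose from 57.1 ± 2.55 to 113 ± 9.62 CPM (log2 0.99, SE 0.11, edgeR adjusted p 4.1e-06). Among the relatives of Sesn2, Sesn1 was higher (log2 0.72) and Sesn3 lower (log2 -1.36). The lipoprotein receptor gene Vldlr, a target of ATF4, fell from 244 ± 15.3 to 79.4 ± 4.32 CPM (log2 -1.62, adjusted p 4.61e-20). Of 15 genes of the other unfolded protein response branches, 11 were lower and 2 higher (median log2 -0.36). The degradation adaptor Sel1l (log2 -1.15) and the chaperone Creld2 (log2 -1.04) were the lowest, and the higher genes were the sensors Atf6 (log2 0.49) and Ern1 (log2 0.36).

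Of 11 genes of mitochondrial stress, 6 were higher and 2 lower (median log2 0.18). Dele1, whose product relays mitochondrial stress to the eIF2alpha kinase HRI, rose from 47.6 ± 1.44 to 64.6 ± 0.395 CPM (log2 0.44, SE 0.0498, edgeR adjusted p 9.3e-09). Oma1, the protease that cuts the DELE1 protein, fell from 17.4 ± 1.92 to 12.2 ± 1.00 CPM (log2 -0.50, adjusted p 3.0e-05). The chaperonin Hspd1 was higher (log2 0.45) and the protease Lonp1 lower (log2 -0.32). The GDF15 receptor genes Gfral and Ret did not pass the low-count filter. Of 9 genes listed with them, mostly known regulators of Gdf15, 6 were higher and 1 lower (median log2 0.22). Cdkn1a, the p53 target p21, rose from 153 ± 2.64 to 289 ± 4.99 CPM (log2 0.91, adjusted p 1.05e-08) and Klf4 from 21.0 ± 0.173 to 34.6 ± 0.112 CPM (log2 0.72), while Hif1a fell (log2 -0.79). No gene of the 10 lists passed the test for H2O2 in either genotype or for the interaction.

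**Figure D5:**
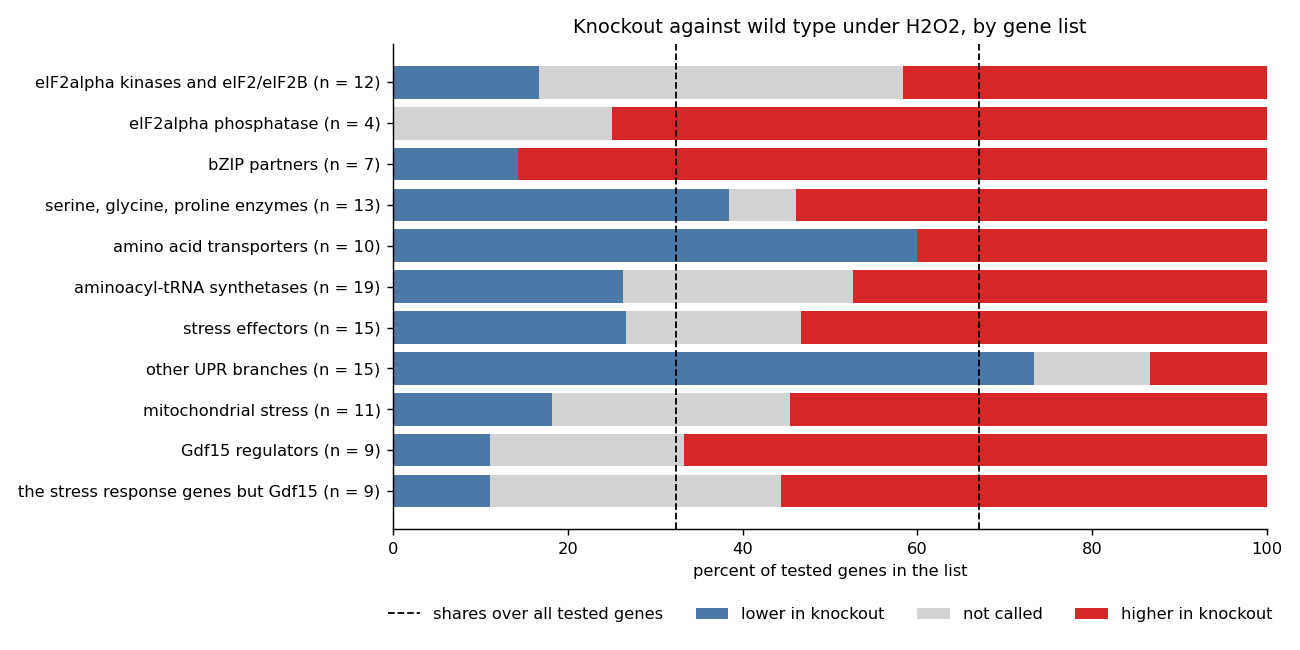
Share of tested genes lower (blue), not called (grey) and higher (red) in treated knockout against treated wild-type cells, for 10 lists and the 9 stress response genes other than Gdf15, without genes that passed the low-count filter through 1 genotype; dashed lines mark 32.4% lower and 33.0% higher over all genes. The other unfolded protein response branches are mostly blue (11 of 15), and the bZIP partners mostly red (6 of 7).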

How the data were processed

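Per the labels' protocols, the 15 libraries were made with the TruSeq Stranded mRNA kit and sequenced from both ends on a NextSeq. The submitters' processing notes name cutadapt, STAR, RSEM and genome build mm10; versions, settings and annotation are not given in the sources used here. The deposited table holds expected counts per gene symbol, already whole numbers, and the authors also deposited RPKM values, used here only to compare levels between genes. Genes with few counts were removed with filterByExpr (13085 of 55341 left, holding 99.917% of counts), libraries were scaled by TMM, and 1 robust quasi-likelihood model of 4 group means was fitted with edgeR 4.0.16 in R 4.3.3 (11 residual degrees of freedom, common biological coefficient of variation 4.958%). SE is the size of the log2 difference divided by the root of the F statistic. P-values were adjusted over all tested genes. Genes that reached the filter (0.68 CPM in 3 libraries) within 1 genotype only were left out of counts of the stress genes and lists between genotypes. They were kept in the shares over all tested genes. The steps were tested on simulated data.

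The members and lists were chosen with earlier results of these data known. Besides the 10 genes, the text names from each list up to 2 called genes each way with the largest log2 difference under H2O2 and a mean of 5 CPM or more in whichever group was higher, and the 5 genes nearest to Gdf15. Gene positions come from GENCODE M21 (mm10) and promoters from RefSeq (GRCm38.p6), where all 10 symbols matched. Alternatives were other size factors, no filter, DESeq2 1.42.0, fewer groups in the fit and leaving out each library. Intervals and floors cover counting error only.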

Additional observations from a re-analysis of the deposited data

Results flagged for a closer look

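A screen covered 28 sets of 4 libraries, the 10 genes in each group of 4 with more than 3 counts. Its cutoff flags about 1 in 20 independent sets. The genes share the same libraries and no share over all tested genes was counted, so the number flagged is not compared with chance. In 5 sets, 1 library stood far from the other 3. For Atf4 this was the lowest library in 3 groups: library 4 of the untreated knockout at 326 CPM (the next at 403), library 12 of untreated wild type at 356 CPM (the next at 395) and library 14 of treated wild type at 353 CPM (the next at 373). Atf3 was at 9.68 CPM in library 4 of the untreated knockout, with 18.28 to 19.99 in the other 3. Cebpg was highest in library 13 of treated wild type, at 80.9 CPM, with 74.9 to 75.1 in the others.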

How the results depend on the processing

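No paired analysis was possible because the groups share no replicate numbers. In treated knockout against treated wild type, 5 of the 9 stress genes other than Gdf15 were called higher and 1 lower. The shares of all tested genes were 33.0% and 32.4%. Atf4 and Ppp1r15a were called as well with only the groups of the comparison or without untreated knockout library 4. Ppp1r15a alone was added with DESeq2 or without untreated knockout library 3. Counts of genes called for H2O2, of all tested, moved most: 2 in wild type, 7 in knockout and 0 for the interaction became 12, 27 and 5 without the filter and 9, 53 and 15 with DESeq2, and 0 in wild type with only its own groups. Leaving out 1 library gave 0 to 13, 0 to 21 and 0 to 3. None of the stress genes was called for H2O2 or the interaction in any of these fits. Differences near 0 changed sign when 1 library was left out, and the cause was not tested. Under H2O2 between genotypes this was Trib3 (-0.0525 to 0.038). Untreated it was Atf4 (-0.0525 to 0.0674), Ppp1r15a (-0.0909 to 0.0944) and Sesn2 (-0.0471 to 0.14). For H2O2 in wild type it was Atf3 (-0.11 to 0.0194), Ddit3 (-0.11 to 0.008) and Chac1 (-0.0371 to 0.0524). For H2O2 in the knockout it was Gdf15 (-0.15 to 0.27), Atf4 (-0.0147 to 0.092), Ddit3 (-0.0606 to 0.12), Chac1 (-0.0621 to 0.13) and Sesn2 (-0.0254 to 0.15), and for the interaction Ddit3 (-0.0182 to 0.17) and Chac1 (-0.0709 to 0.12). No call between genotypes under H2O2 among the stress genes other than Gdf15 was lost in any of these fits. The depth limits Gdf15 in wild type, where 1 count over 8 libraries gives no level to compare.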

Other observations

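The protein-coding genes next to Gdf15 on chromosome 8 were chosen by position after the values of the 10 genes were seen. Under H2O2 the nearest tested neighbour on the one side, Ssbp4, 20.5 kb away, stood at 31.3 CPM in wild type and 43.5 CPM in the knockout (log2 0.48, SE 0.114, edgeR adjusted p 0.00171), and Pgpep1, 14.0 kb away on the other side, at 32.9 and 39.1 CPM (log2 0.25, SE 0.0571, edgeR adjusted p 0.000453). Beyond them Isyna1 had a log2 of 0.11, Ell of 0.22, Lsm4 of 0.05 and Jund of -0.22, of which Isyna1 and Ell passed (adjusted p 0.04 and 0.00154). Lrrc25, the closest gene at 7.91 kb, held 4 counts over all 15 libraries. The 6 tested neighbours lay between -0.22 and 0.48 on the log2 scale, where the fitted log2 of Gdf15, given with no test, was 9.45. Over all tested genes 33.0% were called higher and 32.4% lower. A part of the position of Gdf15 in its difference was not tested.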
